A study of Schmidtea polychroa with 132 samples.

Results

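A group of 203 transcripts of the freshwater planarian Schmidtea polychroa was highest, for most of its members, in stage 4 embryos and stood lower at each later stage up to stage 8. The group was chosen by these same measured values, out of 15121 transcript models, with levels taken as CPM, the count of a transcript scaled to a common library total, and summarised as the median over the libraries of a stage. A member had a stage 4 median of at least 30 CPM that was also at least 0.5 times its median in yolk, and a median that fell at each of the 4 steps between stage 4 and stage 8. Its stage 4 median was more than 3 times its stage 8 median after 1 CPM was added to both, and no single step was larger than 3-fold. Of the 15121 models, 4078 reached 30 CPM in stage 4, 3548 of these met the limit on yolk, 429 of these fell at each step, 277 of these had the required ratio of stage 4 to stage 8, and 203 of these had no step over 3-fold. The decline between stage 4 and stage 8 is therefore how the members were selected and is described here without a test. The other 3875 transcripts with a stage 4 median of at least 30 CPM are given beside the members.

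The libraries came from single embryos released from egg capsules that were kept at 20 °C over 15 days of development, with the stage assigned at collection, and the mRNA was read by CEL-Seq, which counts the 3′ ends of polyadenylated RNA, in libraries treated with a duplex-specific nuclease. The 8 stages had 6, 29, 22, 10, 13, 16, 16 and 15 libraries in order, and 4 further libraries were labelled yolk and 1, which entered no comparison, protist. All 127 embryos came from 1 laboratory population, and the labels name no treatment, mutation or strain. Capsules of origin are not given in the labels, so the p-values below measure the spread between single embryos, which may share a capsule.

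Planarian embryos grow inside a capsule filled with yolk cells made by the parent, and the early embryo is a loose mass of dividing cells among that yolk. A temporary pharynx, which takes in yolk, and a temporary outer layer form first. Later the definitive organs are built while the temporary structures disappear. Transcripts in an early embryo can be supplied by the mother, carried in by yolk cells or made by the embryo itself, and whole-embryo counts of transcripts cannot separate these sources. In whole embryos, fewer cells of a type and less RNA per cell cannot be told apart. Gene names do not accompany the IDs in the files, so members are given by ID alone, no role is given for any of them, and no marker genes of a tissue could be checked.

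Total transcript counts ran between 8530 and 1620829 per library, with a median of 336516, and depth was lowest in the early stages. A single count was worth 43.7 CPM in the median stage 1 library, 8.35 CPM in stage 2, 5.55 CPM in stage 3 and 1.70 CPM in stage 4. The proportions of the synthetic spike-in RNAs among themselves divided the libraries into 4 sets, called A to D here, and no label gives their origin. Sets A and B held yolk, the protist library and stages 1 to 3, set C held stages 4 to 6 and 1 stage 8 library, and set D held stage 7 and 14 stage 8 libraries. The steps between stages 3 and 4 and between stages 6 and 7 therefore coincide with a change of set, and stage and set cannot be told apart there. In 2 of the 10 stage 4 libraries, replicates 3 and 10, transcripts abundant in the protist library took 55.9% and 31.5% of the counts, against at most 2.95% in the other 8. None of the 203 members was among those 115 transcripts.

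The members covered a wide range of levels and of declines. Their stage 4 medians lay between 30.0 and 6223 CPM, with a middle value of 84.0 CPM and quartiles of 54.3 and 187 CPM. Of the 203 members, 5 were at 1000 CPM or more in stage 4, 96 at 100 CPM or more and 41 under 50 CPM. As a proportion of a member's own stage 4 median, with 1 CPM added to both as in all such ratios below, the middle member stood at 77.3% by stage 5, 58.7% by stage 6, 33.4% by stage 7 and 22.4% by stage 8. The quartiles over members were 64.6% and 87.5% for stage 5, 46.8% and 72.7% for stage 6, 27.4% and 40.9% for stage 7, and 16.9% and 28.1% for stage 8. The other transcripts with at least 30 CPM in stage 4 had middle values of 105%, 99.2%, 77.5% and 67.0% over the same 4 stages. With 1 CPM added to both medians, the stage 4 level was 4.46 times the stage 8 level in the middle member, with quartiles of 3.55 and 5.93 and a range of 3.00 to 19.2. The ratio was over 5-fold in 73 members, over 10-fold in 9 and under 4-fold in 78. All 203 members were still detected in stage 8, where their medians ran between 1.53 and 1305 CPM.

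The step at which a member lost most was usually the one between stages 6 and 7. The largest of the 4 steps was the one to stage 5 in 23 members, to stage 6 in 18, to stage 7 in 105 and to stage 8 in 57. In the middle member, each stage held 0.773 of the stage before at stage 5, 0.810 at stage 6, 0.560 at stage 7 and 0.670 at stage 8. The other transcripts had middle ratios of 1.05, 0.949, 0.814 and 0.882 at the same steps, so their smallest ratio also fell at the step to stage 7. The first stage under 0.5 of the stage 4 median was stage 5 for 12 members, stage 6 for 51, stage 7 for 124 and stage 8 for 16. The step to stage 7 is the one that coincides with the change between spike-in sets C and D. Many of the steps were small, and the loss was under 10% at the step to stage 5 in 42 members, to stage 6 in 49, to stage 7 in 15 and to stage 8 in 18.

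Taken as a sum, the 203 members held 5.18% of all transcript counts in the median stage 4 library, with single libraries between 2.58% and 5.94%. The share was 3.99% in stage 5 with a range of 3.14% to 5.16%, 3.39% in stage 6 with a range of 2.62% to 4.18%, 1.80% in stage 7 with a range of 1.36% to 2.33%, and 1.14% in stage 8 with a range of 0.932% to 1.94%. Neighbouring stages overlapped between stages 4 and 6 and did not overlap at the step to stage 7, where all 16 stage 7 embryos were below all 16 stage 6 embryos. All 15 stage 8 embryos were below all 10 stage 4 embryos, and 12 of the 15 were below every stage 7 embryo. The lowest stage 4 share, 2.58%, belonged to replicate 3, one of the 2 libraries rich in transcripts of the protist type, and without both such libraries the stage 4 range was 4.10% to 5.94% with a median of 5.34%. The 1 stage 8 library that lies in set C with stages 4 to 6, replicate 12, had a share of 1.09%, below all stage 6 libraries of that set and near the stage 8 median. When the rule was applied without that library it gave 205 members, of which 194 were below their stage 6 median in it, 94.6%, against 67.1% of the others. The stage 6 medians were used by the rule, so this is a description. Before stage 4 the share was lower, with medians of 0.860% for yolk, 1.01% for stage 1, 1.43% for stage 2 and 1.53% for stage 3, and it was 0.0584% in the protist library. The 2 most abundant members made up 23.8% of the summed share at stage 4, 29.3% at stage 7 and 23.7% at stage 8.

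**Figure D1:**
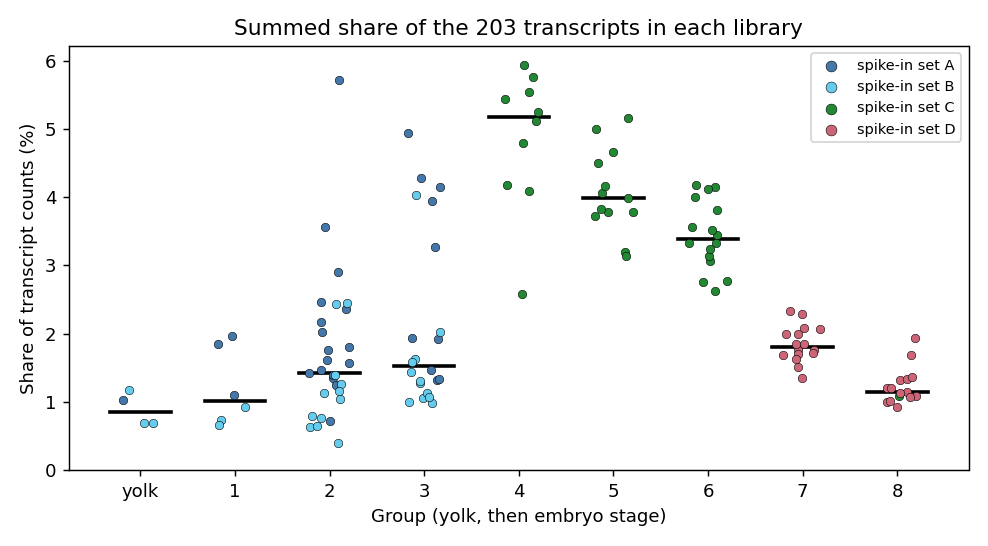
Percent of transcript counts held by the 203 members in each library, by group in developmental order with yolk at the left, with points coloured by spike-in set and a bar at each group's median. Stage 4 embryos sit between 2.58% and 5.94% and all stage 8 embryos lie below all of them, and the 16 stage 7 embryos lie below all 16 stage 6 embryos.

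Of the 4 steps, 3 lie within a spike-in set and could be set on a second scale. Each library received spike-in RNA, so member counts were also divided by the spike-in counts of the same library and compared within a spike-in set. Within set C, 111 of the 203 members were lower in stage 5 than in stage 4 per spike-in count and 92 were higher, with a median log2 ratio of stage 5 to stage 4 of −0.079 per spike-in count and −0.38 in CPM. Of the other transcripts 29.4% were lower in stage 5 per spike-in count, with a median of 0.34. At the next step 197 members were lower in stage 6 than in stage 5, with a median log2 ratio of −0.73 per spike-in count and −0.31 in CPM. Most other transcripts, 81.6%, were also lower in stage 6 than in stage 5 per spike-in count, with a median of −0.39. Over both steps 198 of 203 were lower in stage 6 than in stage 4, with medians of −0.82 per spike-in count and −0.79 in CPM. The other transcripts had a median of −0.09 between stages 6 and 4 per spike-in count and 55.1% of them were lower in stage 6. Within set D, with 14 stage 8 and 16 stage 7 libraries, the direction was opposite on the 2 scales, since 21 members were lower in stage 8 and 182 were higher per spike-in count with a median log2 ratio of 0.54, while 199 were lower in CPM with a median of −0.59. The other transcripts stood at 0.95 at that step per spike-in count, with 4.28% of them lower in stage 8. Transcript counts per spike-in count had medians of 9.01 for stage 4, 10.6 for stage 5, 9.14 for stage 6, 31.3 for stage 7 and 62.2 for the stage 8 libraries of set D. The steps between sets were not set side by side per spike-in count, and whether the spike-in amount was equal in every embryo was not tested. Stage 6 was thus lower than stage 4 on both scales, while the step to stage 5 was near 0 for the middle member per spike-in count and the step to stage 8 had opposite signs. The fall in CPM is what the rule required.

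**Figure D2:**
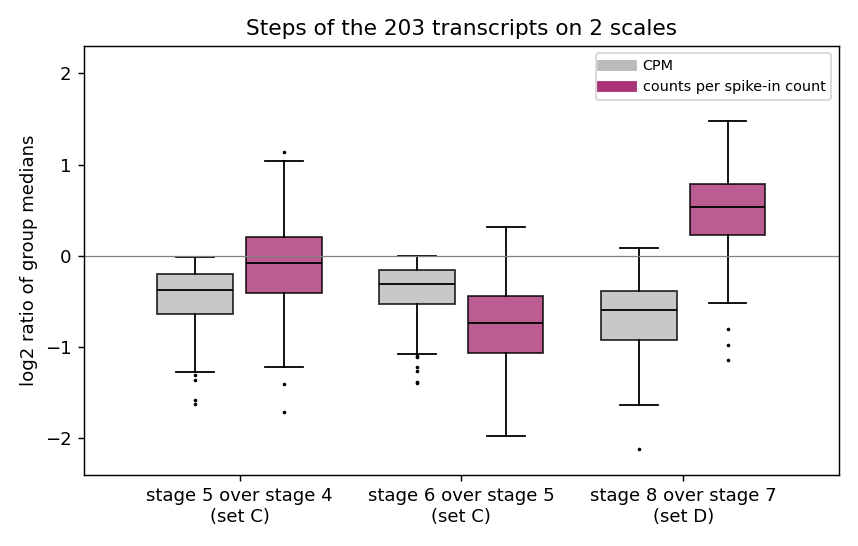
Log2 ratio of the later stage to the earlier one for each of the 203 members, at the 3 steps that lie within a spike-in set, in CPM and per spike-in count; boxes span the quartiles. The boxes for stage 6 against stage 5 lie below 0 on both scales, and those for stage 8 against stage 7 lie on opposite sides of 0, with medians of −0.59 in CPM and 0.54 per spike-in count.

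Most members were also lower before stage 4, so that stage 4 was their highest group. The highest median of the 9 groups was in stage 4 for 187 members, 92.1%, while yolk was highest for 7, stage 1 for 4, stage 2 for 3 and stage 3 for 2. Among the other transcripts with at least 30 CPM in stage 4, 20.2% had their highest median there. The rule required members, and not the others, to fall after stage 4 and limited their yolk level, and the stage 4 median it used is the base of every ratio below, so these comparisons are descriptions. The middle member was at 2.75% of its stage 4 median by stage 1, 14.9% by stage 2 and 22.0% by stage 3, and the other transcripts were at 9.18%, 22.0% and 31.5%. In these shallow libraries the median was 0 for 100 members at stage 1, 59 at stage 2 and 12 at stage 3. With counts pooled over a stage, the middle value over members was 7.77 CPM in stage 1 and 44.2 CPM in stage 2. It was 44.6 CPM in stage 3 and 96.0 CPM in stage 4, so pooled levels hardly differed between stages 2 and 3. In stage 3, 174 of the 203 members stood under 0.5 times their stage 4 median after 1 CPM was added to both, which was 85.7%, against 65.3% of the others, and 29 were between 0.5 and 2 times it. None was over 2 times it. The stage 3 median was under 0.25 of the stage 4 median in 116 members and under 0.1 of it in 40, and it was above the stage 4 median in 6. The median rose at each step between stage 1 and stage 4 in 78 members, 38.4%, and in 26.5% of the others. Median library depth also rose at each of these steps, and its part in these counts was not tested.

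These early levels depended on the spike-in set. Against stage 4, the middle member was at 37.9% in the stage 3 libraries of set A and at 19.4% in those of set B, and 136 and 180 of the 203 members, 67.0% and 88.7%, stood under 0.5 times their stage 4 level. The other transcripts had middle values of 43.9% with set A and 29.9% with set B, and 55.6% and 65.1% of them stood under 0.5 times their stage 4 level, so members and others were closer in set A. Transcript counts per spike-in count had medians of 0.327 in the stage 3 libraries of set A and 10.6 in those of set B. The summed share had a median of 2.60% in set A and 1.29% in set B in stage 3, and 1.76% and 1.09% in stage 2. Of the 10 stage 4 embryos, 6 were above every stage 3 embryo in the summed share, and none of the 10 overlapped the 4 yolk libraries, which lay between 0.691% and 1.18%. Without the 2 stage 4 libraries rich in protist-type transcripts, 174 members stood under 0.5 times it in stage 3 and the middle member was at 20.9%. No set holds both stage 3 and stage 4 libraries, so that the difference between these stages and the difference between sets cannot be told apart.

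The members differed in how much of them was seen in yolk. In yolk, 112 members stood under 0.1 of their stage 4 median, 68 between 0.1 and 0.5 of it, and 23 at 0.5 or more, and the yolk median was above the stage 4 median in 10 of these. The middle member was at 8.84% in yolk and 88.7% of members were under 0.5. The other transcripts had a middle value of 23.5%, with 66.3% of them under 0.5. The rule limited the yolk level of members and not of the others, so this is a description. Of the 174 members that were lower in stage 3, 106 were also under 0.1 in yolk and 8 at 0.5 or more, while of the 29 members level in stage 3, 6 were under 0.1 in yolk and 15 at 0.5 or more. In the middle of each class the members that were lower in stage 3 had 7.96 CPM in yolk, 18.5 CPM in stage 3, 101 CPM in stage 4 and 20.9 CPM in stage 8. The level members had 31.9 CPM in yolk, 44.9 CPM in stage 3, 68.6 CPM in stage 4 and 10.7 CPM in stage 8. The middle ratio of stage 4 to stage 8 was 4.37-fold in the lower class and 6.12-fold in the level class, a description since both classes were formed with stage 4 values.

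**Figure D3:**
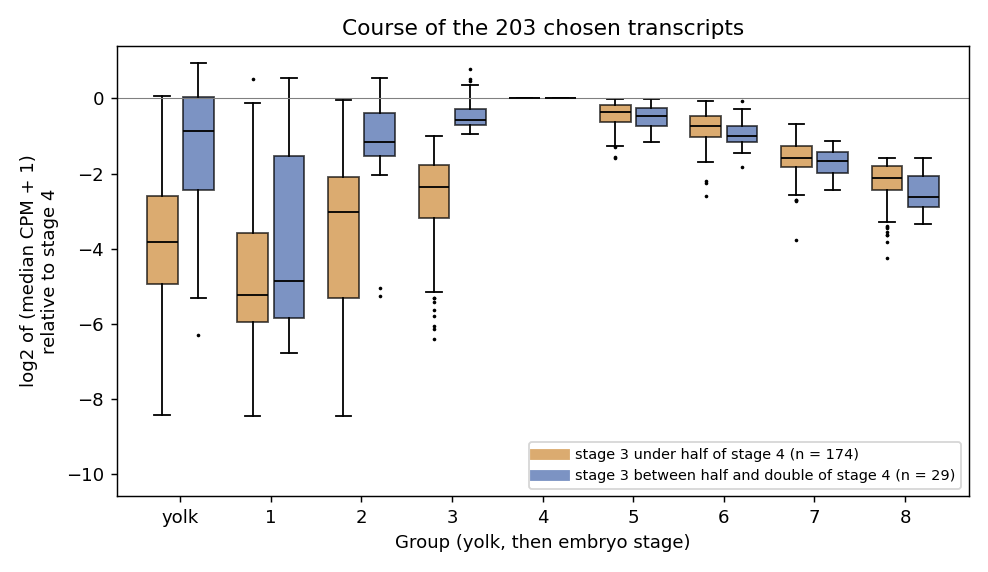
Median CPM of each member in each group as log2 of its ratio to stage 4 after 1 CPM was added, for the 174 members under 0.5 of their stage 4 level in stage 3 and the 29 level members, in developmental order with yolk at the left; boxes span the quartiles, the line is the median and dots are members beyond the whiskers. Both classes are at 0 in stage 4 by construction and fall at each later stage by the rule. The level members stand above the others in stage 3, by which the classes were formed, and also in yolk and stage 2.

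For 10 members no count was seen in any of the 4 yolk libraries, which allows up to 2.43 CPM in the pooled yolk counts if 3 counts are taken as the limit. This limit covers counting error only. Of the 10, 9 were in the class that was lower in stage 3, and their pooled levels were 2.12 to 61.6 CPM in stage 2 with a median of 10.6 CPM, 9.36 to 37.9 CPM in stage 3 with a median of 20.4 CPM, 34.7 to 122 CPM in stage 4 with a median of 74.5 CPM, and 6.61 to 30.4 CPM in stage 8 with a median of 15.4 CPM. Each of them had counts in 5 to 18 of the 29 stage 2 libraries and in 9 to 15 of the 22 stage 3 libraries. They were thus detected before stage 4 in a part of the libraries. A single count was worth 8.35 CPM in the median stage 2 library and 5.55 CPM in stage 3. The part of depth in the libraries without a count was not tested. Over all members, 34 had a median of 0 in yolk, and 100 did so at stage 1, 59 at stage 2 and 12 at stage 3, while none of the 203 was without a count over all of stage 2 or stage 3.

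The 2 early steps, which the rule did not use, were tested with edgeR and, as an alternative, with DESeq2. Between stage 3 and stage 2, edgeR's quasi-likelihood test over 20 stage 3 and 27 stage 2 libraries called 24 of 1982 tested transcripts, 1.21%, at a Benjamini-Hochberg adjusted p under 0.05. Of the 203 members, 63 had enough counts to be tested and 0 were called, with 8 at an unadjusted p under 0.05, 6 of them higher in stage 3. Those 8 were 12.7% of the members tested, against 9.43% of all transcripts tested. The order depended on the setting. The 2 shares were 15.9% and 11.4% with DESeq2, 15.9% and 12.0% with the set as a term, and 15.2% and 9.78% within set A. They were 4.17% and 6.15% within set B, 4.12% and 6.44% with a 25% library minimum, and 9.52% and 9.64% with another scaling. They were 16.7% and 17.8% with no count filter, and 11.4% and 12.5% with stage 1 in the same fit. Nothing is therefore read from these shares. DESeq2 also called 0 members, and 1.87% of all transcripts tested. The remaining 140 members were not tested at this step, so the absence of calls is a statement on 63 members. FW_v1_tr_04458 had a log2 ratio of stage 3 to stage 2 of 1.49 (SE 0.50, edgeR adjusted p = 0.182), and FW_v1_tr_11290 had 0.77 (SE 0.26, edgeR adjusted p = 0.195), neither past the threshold.

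**Figure D4:**
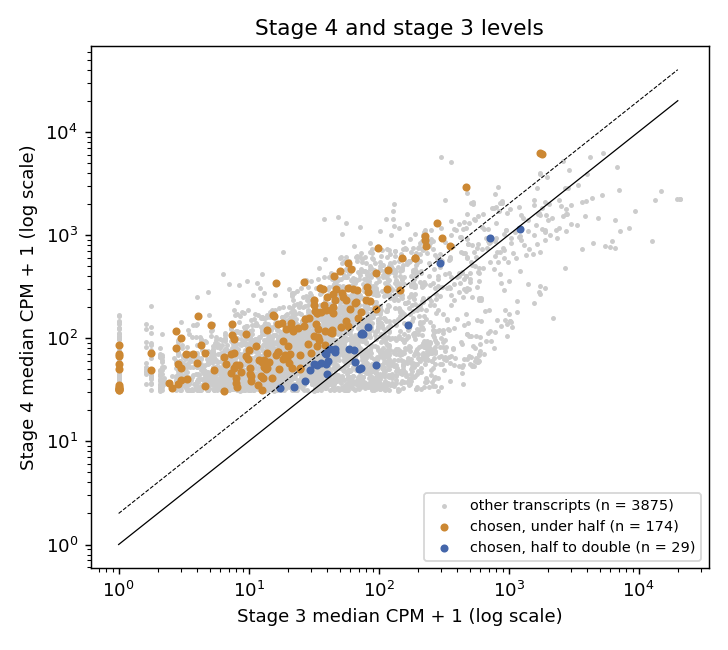
Median CPM of each of the 203 members and of the 3875 other transcripts (grey) in stage 4 on the vertical axis against its median in stage 3 on the horizontal axis, both after 1 CPM was added and on log scales, with a solid line at equal levels and a dashed line at a stage 4 level 2 times that of stage 3. The 174 members under 0.5 of their stage 4 median in stage 3 lie above the dashed line and the 29 level members lie below it.

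Between stage 2 and stage 1, 27 and 3 libraries could be tested, since the 3 stage 1 libraries of set A held only 8530 to 12942 counts. All 3 stage 1 libraries that remained were in set B, and 15 of the 27 stage 2 libraries were in set A. The test called 34 of 4394 transcripts, 0.774%, all of them lower in stage 2. Of the 122 members tested, 1 was called, FW_v1_tr_05480, with 29 members at an unadjusted p under 0.05, of which 28 were higher in stage 2. That was 23.8% of the members tested, against 14.9% of all transcripts tested. The 2 shares were 14.8% and 12.1% with the set as a term, and 17.7% and 12.5% within set B alone. They were 10.7% and 9.84% without stage 1 replicate 5, and 45.1% and 21.2% with DESeq2. The count filter could be passed on stage 2 counts alone, as by FW_v1_tr_11634, which had 0 CPM in all 3 stage 1 libraries tested. Such members could only be higher in stage 2, so nothing is read from these shares. FW_v1_tr_05480 fell in stage 2, with a log2 ratio of stage 2 to stage 1 of −2.17 (SE 0.50, edgeR adjusted p = 0.0134). Within set B alone the log2 ratio was −1.78 (edgeR adjusted p = 0.0296), and with the set as a term in the fit it was −1.84 (edgeR adjusted p = 0.102). The call was also lost when stage 1 replicate 4 or replicate 6 was left out, and DESeq2 called 14 of the 122 members at this step, 13 of them higher in stage 2 and 1 lower, and 211 of all 4394 transcripts, 4.80%.

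FW_v1_tr_11290 and FW_v1_tr_00436 were the 2 most abundant members, and they had 183208 and 182990 counts over all libraries. Their counts agreed within counting noise by a chi-square comparison, so they are given here as 1 signal. FW_v1_tr_11290 had 781, 1917, 265 and 320 CPM in the 4 yolk libraries. Its lowest, median and highest values were 357, 1005 and 2784 CPM in stage 1, 180, 1201 and 2820 CPM in stage 2, 657, 1728 and 4896 CPM in stage 3, and 2827, 6223 and 8246 CPM in stage 4. They were 3138, 5360 and 8558 CPM in stage 5, 1958, 3393 and 5800 CPM in stage 6, 1646, 2853 and 5095 CPM in stage 7, and 880, 1278 and 3554 CPM in stage 8. All 10 stage 4 embryos were above all 4 yolk libraries and 7 of them above all stage 3 embryos, and 14 of the 15 stage 8 embryos were below every stage 4 embryo. Within stage 3 the median was 2998 CPM in the libraries of set A and 1207 CPM in those of set B. FW_v1_tr_00436 had medians of 643 CPM in yolk, 1795 CPM in stage 3, 6089 CPM in stage 4 and 1305 CPM in stage 8.

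The member with the steepest decline, FW_v1_tr_03059, also had a wide range among early embryos. It had 260, 118, 239 and 68.6 CPM in the yolk libraries. In stage 1 its lowest, median and highest values were 10.1, 363 and 1391 CPM, in stage 2 they were 16.7, 374 and 6263 CPM, in stage 3 they were 7.01, 117 and 4983 CPM, and in stage 4 they were 79.8, 459 and 1114 CPM. They then stood at 9.61, 153 and 878 CPM in stage 5, 5.77, 75.5 and 534 CPM in stage 6, 6.57, 32.9 and 152 CPM in stage 7, and 2.93, 22.9 and 57.6 CPM in stage 8. All 15 stage 8 embryos were below all 10 stage 4 embryos, a ratio of medians of 19.2-fold after 1 CPM was added, while stage 4 embryos lay inside the range of stage 3 embryos. The highest values were in set A, where stage 2 reached 6263 CPM against a highest value of 624 CPM in the stage 2 libraries of set B.

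FW_v1_tr_14545, the second steepest among the members that were lower in stage 3, had a median of 0 in each stage before stage 4. It was listed at 0 in 3 of the 4 yolk libraries and at 3.81 CPM in the other, and it was at 0 in all 6 stage 1 libraries. Its median was 0 in both stage 2 and stage 3, where the highest embryo had 58.5 CPM and 112 CPM. It had no count in 19 of the 29 stage 2 libraries and 12 of the 22 stage 3 libraries, so a part of these embryos had counts. Its pooled level was 9.84 CPM in stage 2, 22.9 CPM in stage 3 and 66.2 CPM in stage 4. The lowest, median and highest values were 13.6, 48.8 and 156 CPM in stage 4, 0, 28.8 and 81.1 CPM in stage 5, 8.33, 21.1 and 158 CPM in stage 6, 0, 8.63 and 33.8 CPM in stage 7, and 0, 2.50 and 16.1 CPM in stage 8. Of the 15 stage 8 embryos, 12 were below all stage 4 embryos, and the ratio of stage 4 to stage 8 was 14.2-fold after 1 CPM was added.

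Among the 29 members that stood level in stage 3, FW_v1_tr_09977 and FW_v1_tr_05480 were the most abundant and both were high in yolk. FW_v1_tr_09977 had 1432, 1011, 1060 and 837 CPM in the yolk libraries. Its median was 394 CPM in stage 1, 862 CPM in stage 2, 1226 CPM in stage 3, 1137 CPM in stage 4, 1130 CPM in stage 5, 905 CPM in stage 6, 369 CPM in stage 7 and 343 CPM in stage 8. Single embryos lay between 557 and 2331 CPM in stage 4, 188 and 1822 CPM in stage 6, 276 and 589 CPM in stage 7, and 225 and 742 CPM in stage 8. All 16 stage 7 embryos were below the stage 6 median, and 14 of the 15 stage 8 embryos were below every stage 4 embryo. Its largest loss was at the step to stage 7, where the spike-in set changes. The 1 stage 8 library of set C had 336 CPM.

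FW_v1_tr_05480, the member called between stages 2 and 1, had 755, 1789, 743 and 955 CPM in yolk. Its lowest, median and highest values were 234, 1358 and 2696 CPM in stage 1, 172, 723 and 2830 CPM in stage 2, 57.3, 717 and 2408 CPM in stage 3, and 202, 928 and 1461 CPM in stage 4. Medians of 890 CPM in stage 5 and 889 CPM in stage 6 were followed by 339 CPM in stage 7 and 144 CPM in stage 8. In stage 1 the 3 libraries of set B had 2021 to 2696 CPM, and the 3 shallow libraries of set A had 234 to 695 CPM, so the sets did not overlap within that stage. Of the 15 stage 8 embryos, which spanned 27.3 to 655 CPM, 9 were below every stage 4 embryo.

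The steepest of the level members were FW_v1_tr_11634 and FW_v1_tr_02584, with ratios of stage 4 to stage 8 of 10.1-fold and 9.91-fold after 1 CPM was added. FW_v1_tr_11634 had no count in any yolk library and medians of 0 CPM in stage 1, 34.4 CPM in stage 2, 21.4 CPM in stage 3, 32.5 CPM in stage 4, 19.2 CPM in stage 5, 12.9 CPM in stage 6, 6.70 CPM in stage 7 and 2.32 CPM in stage 8. Its stage 4 embryos spanned 0 to 168 CPM and its stage 8 embryos 0 to 29.3 CPM, so the groups overlapped. FW_v1_tr_02584 was present in yolk, with 91.1, 191, 111 and 61.0 CPM, and had medians of 5.05 CPM in stage 1, 79.6 CPM in stage 2, 82.2 CPM in stage 3, 128 CPM in stage 4, 86.3 CPM in stage 5, 63.9 CPM in stage 6, 23.9 CPM in stage 7 and 12.0 CPM in stage 8. For FW_v1_tr_02584 the 15 stage 8 embryos lay between 2.32 and 35.1 CPM, all below the 10 stage 4 embryos, which lay between 51.3 and 172 CPM.

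**Figure D5:**
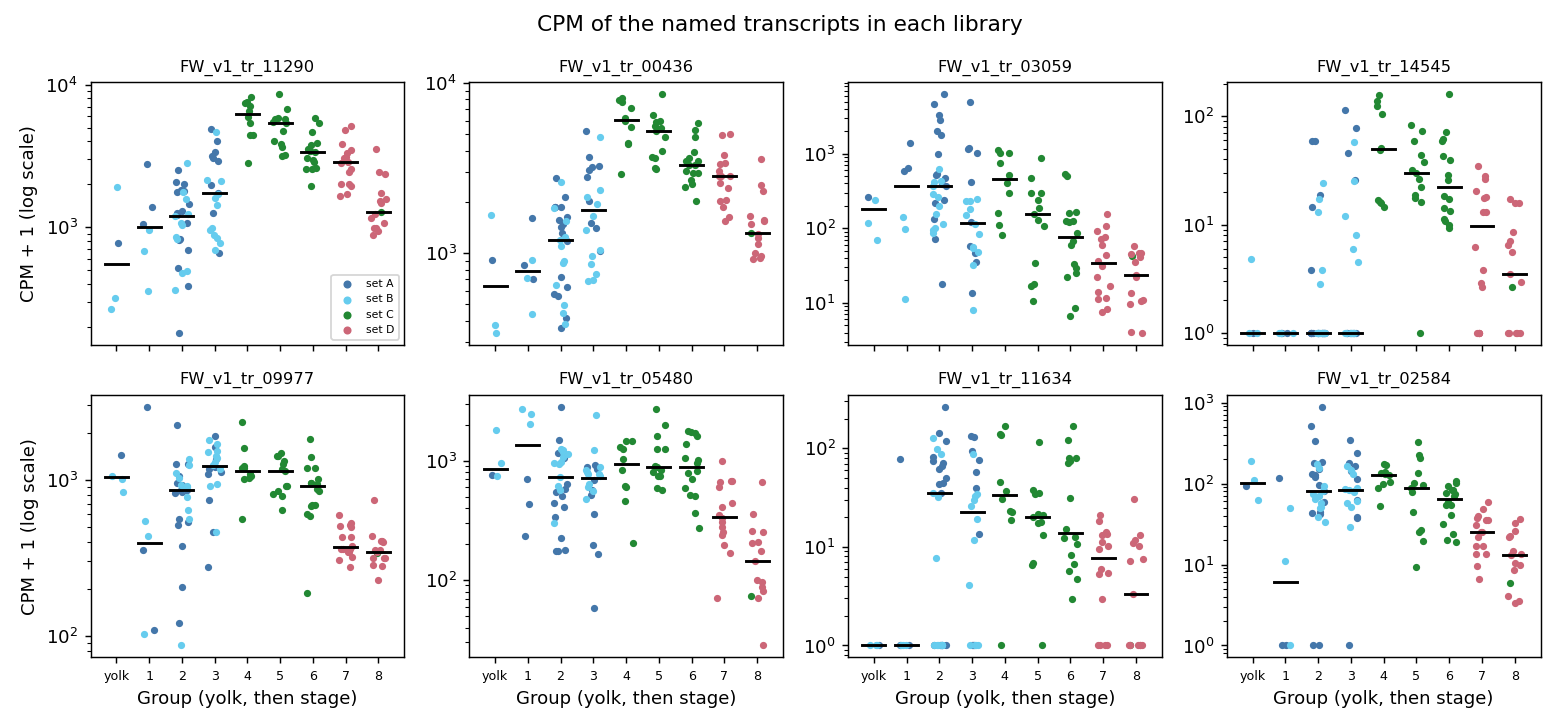
CPM of the 8 named members in single libraries on a log scale after 1 CPM was added, by group in developmental order with yolk at the left, points coloured by spike-in set and a bar at each median. FW_v1_tr_11290 and FW_v1_tr_00436 have near-identical courses with medians of 6223 and 6089 CPM in stage 4, and FW_v1_tr_14545 has medians of 0 in yolk and stages 1 to 3.

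Single embryos of a stage were uneven in most members, and the decline of a median did not separate every embryo. All 15 stage 8 embryos were below all 10 stage 4 embryos in 17 of the 203 members, 8.37%, against 4.85% of the others and 1.46% of all models. When the 2 stage 4 libraries rich in protist-type transcripts were left out, this held for 49 members, 24.1%, against 10.0% of the others and 3.11% of all models. The rule chose members for a lower median in stage 8 than in stage 4, so nothing is read from these shares. The coefficient of variation of CPM between embryos had a middle value of 0.576 for members and 0.631 for the other transcripts at stage 4, 0.565 and 0.503 at stage 5, 0.700 and 0.637 at stage 6, 0.520 and 0.403 at stage 7, and 0.775 and 0.497 at stage 8. Levels fell at the same time, since the middle median in stage 8 was 18.6 CPM for members and 56.7 CPM for the others, and the part of counting error in the larger spread of members was not tested. Within a stage the measured rank correlations between members were low, and the part of counting error in this was not tested. The mean Spearman's rho over pairs of members was 0.0988 at stage 4, 0.113 at stage 5, 0.0535 at stage 6, 0.0539 at stage 7 and 0.0871 at stage 8, where the other transcripts had 0.186, 0.0254, 0.0236, 0.0144 and 0.0132. Without the 2 protist-rich libraries the stage 4 values were 0.0450 for members and 0.0391 for the others. These correlations share libraries and their depth, and they are given as descriptions.

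Not all members are separate signals. By a chi-square comparison, 61 members had counts that matched those of at least 1 other transcript model within counting noise, and in 30 of the 70 such pairs both models were members. These 30 pairs joined 39 members into 16 groups of up to 5, so that the 203 members hold 180 separate count patterns. Of the 30 pairs in which both models were members, 4 had neighbouring numbers. The counting setting that would tell shared reads from duplicated models is not given in the sources used here.

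The borders of the rule cut through a continuous range of transcripts. At the limit of 30 CPM in stage 4, FW_v1_tr_01507 was inside with 30.0 CPM and FW_v1_tr_09848 was outside with 29.9 CPM. At the limit on yolk, FW_v1_tr_14576 was inside with a stage 4 median at 0.518 of its yolk median and FW_v1_tr_02804 was outside at 0.491. For the smallest step, FW_v1_tr_05480 was inside with an earlier median 1.001 times the later one and FW_v1_tr_05603 was outside at 0.998. At the limit on the ratio of stage 4 to stage 8, FW_v1_tr_03095 was inside at 3.003-fold and FW_v1_tr_07124 outside at 2.996-fold. At the limit on a single step, FW_v1_tr_06754 was inside at 2.99-fold and FW_v1_tr_01622 outside at 3.004-fold. Transcripts that met every condition except 1 numbered 66 for the stage 4 level, 21 for yolk, 231 for the fall at each step, 152 for the ratio and 74 for the largest step. With group means in place of medians, 95 of the 203 members met the rule, so that membership depended on which summary of the embryos was used.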

How the data were processed

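The authors deposited 1 table of whole-number read counts per transcript model, spike-in RNA and HTSeq counter, not normalized, for 132 CEL-Seq libraries of single Schmidtea polychroa embryos, yolk and protist. The tools were HTSeq 0.5.4p3, Bowtie2 2.1.0 and CASAVA 1.8, per the submitters' processing notes. The strand setting and any use of molecular identifiers are not given in the sources used here, and the genome build listed there belongs to a fly, so no coordinates are used. The counters for unaligned reads and for reads outside any feature held 63.6% and 2.56% of all reads and stayed out of the totals. CEL-Seq counts transcript ends, so levels were not divided by length.

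From the counts, CPM was computed over the transcript rows without 3 transcripts whose counts follow the spike-ins, and the rule in the opening was applied to group medians. The members and lists were chosen with earlier results of these data known. Spike-in sets came from Ward clustering of the log2 proportions of 26 spike-ins that reached 5 counts in 95% of libraries. Transcripts high in the protist library had at least 30 CPM there and at least 10 times the highest median of every other group.

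The steps between stages 2 and 1 and between stages 3 and 2 were tested with edgeR 4.0.16 (R 4.3.3), using TMM scaling, filterByExpr, robust quasi-likelihood F tests and Benjamini-Hochberg adjustment over all transcripts tested, on libraries with at least 5% of the median transcript total. This minimum left out 7 libraries. The scripts were tested on simulated data. Standard errors came from the log2 ratio and its F statistic. DESeq2 1.42.0 was an alternative. Precision is limited by depth, at a median of 336516 counts per library. Without molecular identifiers stated, limits for a count of 0 cover counting error only. Members named in the text were, in each class of stage 3 to stage 4 ratio, the 2 highest in stage 4 and the 2 with the largest ratio of stage 4 to stage 8, the called members of each tested step, the 2 members nearest a call between stages 3 and 2 (chosen after their values were seen), and the transcripts at each limit of the rule.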

Additional observations from a re-analysis of the deposited data

Results flagged for a closer look

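Among 27 groups of 4 to 10 libraries checked for the summed share and the 8 named members, 3 held a library far from the others. The limit on the gap to the next library was set for about 1 in 20 by chance in normally distributed values. That rate does not hold for sparse counts. Where all other libraries are at 0, any count is flagged, as for FW_v1_tr_14545 and FW_v1_tr_11634 here. FW_v1_tr_14545 had 3.81 CPM in yolk replicate 4, from 2 counts, and was at 0 in the other 3 yolk libraries. FW_v1_tr_09977 had 2936 CPM in stage 1 replicate 2, from 38 counts in a library of 12942, and 101 to 539 CPM in the other 5 stage 1 libraries. In the same library FW_v1_tr_11634 had 77.3 CPM from 1 count, and the other 5 were at 0. Stage 1 replicate 2 belongs to set A and was below the depth used for the tests.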

How the results depend on the processing

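The count of 203 members stayed within 1.5 times under the other settings tried, but the members themselves changed. With TMM-scaled totals 219 transcripts met the rule, of which 155 were among the 203, and with means in place of medians 218 did, of which 95 were among them. When libraries under 25% of the median total were dropped, the rule gave 239, of which 191 were shared. Without the 2 protist-rich stage 4 libraries it gave 282 and kept the limit of 250, of which 180 were shared. These last libraries, the deeper-library minimum and the other scalings thus decide part of the list.

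Per spike-in count, 111 members fell at the step to stage 5, with a median log2 ratio of −0.079 (−0.089 with the 3 left-out transcripts kept), the median at the step to stage 6 was −0.73 (−0.74), and at the step to stage 8 only 21 fell, with a reversed median of 0.54 (0.55). The cause was not tested. Between stages 3 and 2, no filter on low counts gave 6 of 203 members, all higher in stage 3, and 5.61% of all transcripts. Libraries over 25% of the median gave 1 of 97 members tested, lower in stage 3, and 0.276% of all transcripts. Between stages 2 and 1, DESeq2 gave 14 members and 4.80% of all transcripts. With no filter, with the spike-in set as a term, with the 25% minimum or with no library minimum, 0 members were called. In the same order, 0.689%, 0.478%, 0% and 0% of all transcripts were called. The fit with no library minimum and the single-set fits were added after seeing the data. Leaving out single stage 1 libraries gave 0 to 1 members, and 0.175% to 0.450% of all transcripts. The adjusted p of FW_v1_tr_05480 ran between 0.00327 and 0.230 over the settings. No paired analysis was possible because replicate numbers follow the order of deposition and the labels pair no embryos. Depth limits the early stages most, since 140 members could not be tested between stages 3 and 2.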
